A study of Mus musculus with 6 samples.

Results

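Chondroitin and heparan sulfate are glycosaminoglycan chains made in the Golgi by a sequence of enzymes, and the 44 genes described here cover that sequence. They serve the linker sugars that join a chain to its core protein, the chondroitin chain and the heparan sulfate chain. The others are the sulfotransferases and epimerases that modify both chains, the supply of sulfate and sugars, and the extracellular sulfatases. The genes were chosen for their role in the pathway and matched by symbol to the rib cage count table, where all 44 were found among 55487 gene IDs, and all 44 were among the 26596 genes with at least 10 counts over the 6 libraries. RNA-Seq was run on rib cages dissected from mouse embryos at 16.5 dpc, cleaned of connective tissue. The controls were 3 embryos labelled wild type (E420, E434 and E435), and the mutants were 3 embryos labelled Col2-cre;Foxc1-/-;Foxc2-/- (E423, E433 and E440), in which a Cre transgene driven by Col2 sequences, active in chondrocytes and their progenitors, recombined floxed alleles of the transcription factor genes Foxc1 and Foxc2. The methods give a mixed background for all mice and state that littermates were compared. The mothers in these crosses were homozygous for floxed Foxc1 and Foxc2, so littermates carry a floxed allele of each gene despite the wild type label. The paper describes its controls for skeletal staining as lacking the Cre transgene. The labels do not say which embryos shared a litter. Libraries held 37853988 to 47794799 counts, each end of a read pair being counted on its own.

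The glycosaminoglycans described here are long sugar chains on core proteins such as aggrecan, the large proteoglycan of cartilage. The chains begin with xylose on a serine of the core protein, followed by galactose, galactose and glucuronic acid, and the next sugar decides whether a chondroitin or a heparan chain follows. Chondroitin sulfate gives cartilage its charge and its capacity to hold water, while heparan sulfate binds growth factors at cell surfaces, and all sulfation draws on an activated sulfate donor, PAPS, made in the cytosol and carried into the Golgi. Loss of enzymes or transporters of chondroitin sulfation, among them PAPSS2, SLC26A2 and CHST11, is known to disturb skeletal growth.

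Foxc1 and Foxc2 were lower in each library labelled mutant than in each control, with Foxc1 at 23.1, 36.9 and 24.2 CPM (counts scaled by library size, with TMM) in E420, E434 and E435 and at 3.56, 9.61 and 3.51 CPM in E423, E433 and E440, and Foxc2 at 1.99, 4.83 and 3.22 CPM and at 0.649, 1.14 and 0.737 CPM in the same order. The whole rib cage holds many cell types, and the RNA levels of cartilage markers differed between libraries within both groups. Col2a1, the collagen that defines cartilage, stood at 631, 14427 and 582 CPM in E420, E434 and E435 and at 177, 4927 and 162 CPM in E423, E433 and E440, so that E434 and E433 stood apart from the other 4 libraries. The summed early chondrocyte markers (15 genes, none at 0 in any library) ran from 2067 to 28335 CPM in controls and from 717 to 10587 CPM in mutants. Summed keratinocyte markers (8 genes, 2 of them at 0 in at least 1 library) went the other way: 11.8 CPM in E434 and 3268 in E433, against 5477 and 6316 in E420 and E435 and 27959 and 28095 in E423 and E440. Skeletal muscle markers (7 genes, none at 0) summed to 10457, 18224 and 10659 CPM in E420, E434 and E435 and to 25402, 13957 and 24691 CPM in E423, E433 and E440, adipocyte markers (6 genes, none at 0) to at most 150 CPM in controls and at least 212 CPM in mutants, and hepatocyte markers (6 genes, none at 0) to 595 CPM in E433 against at most 46.3 CPM elsewhere. The sums of 4 other marker lists did not overlap between groups and were lower in mutants: osteoblast (8 genes, none at 0) at 10048 to 15215 CPM in controls and 7256 to 7851 CPM in mutants, hypertrophic chondrocyte (4 genes, none at 0) at 1240 to 1679 and 383 to 731 CPM, osteoclast (3 genes, none at 0, 1 of them called by edgeR) at 245 to 304 and 96.3 to 156 CPM, and macrophage (5 genes, none at 0) at 175 to 180 and 133 to 162 CPM. The part of these cell types in the results below was not tested, and in whole-tissue RNA fewer cells of a type and less RNA per cell cannot be told apart. E423 and E440 were close to each other (SD of the log2 ratio over genes 0.135), as were E420 and E435 (0.156), and the chi-square per degree of freedom of their counts was 3.65 and 10.9, against at least 87.0 for each other pair of libraries. That measure covers counting error only and is raised by counting both ends of a read pair. The labels give each library its own embryo number, so all 6 were kept as separate samples, but whether these pairs are closer than separate embryos would be was not tested. P-values measure the spread between these libraries, which may be technical.

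Papss2 and Papss1 make the same sulfate donor but followed the level of Col2a1 differently, and Chst11 is the main sulfotransferase gene of cartilage chondroitin. Promoter sequences are shown for these 3 members. Papss2 and Chst11 rose with Col2a1 and Papss1 was nearly level, as described below. Xylt1, the member with the highest slope on Col2a1, is not shown. Each runs from 250 bases before to 50 bases after the gene start in RefSeq (GRCm38.p6), 5′ to 3′ on the gene's strand, with capitals marking GGGCGG or its reverse complement CCGCCC, the letters of a GC box. The regions are chr19:32595465-32595764 (+) for Papss2, chr3:131564518-131564817 (+) for Papss1 and chr10:82985247-82985546 (+) for Chst11.
Papss2: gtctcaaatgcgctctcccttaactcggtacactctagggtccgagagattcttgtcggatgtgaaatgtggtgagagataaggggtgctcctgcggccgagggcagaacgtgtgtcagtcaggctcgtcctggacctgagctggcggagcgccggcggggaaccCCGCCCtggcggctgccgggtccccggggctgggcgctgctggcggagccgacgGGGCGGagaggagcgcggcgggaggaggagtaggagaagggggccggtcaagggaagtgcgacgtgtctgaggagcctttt
Papss1: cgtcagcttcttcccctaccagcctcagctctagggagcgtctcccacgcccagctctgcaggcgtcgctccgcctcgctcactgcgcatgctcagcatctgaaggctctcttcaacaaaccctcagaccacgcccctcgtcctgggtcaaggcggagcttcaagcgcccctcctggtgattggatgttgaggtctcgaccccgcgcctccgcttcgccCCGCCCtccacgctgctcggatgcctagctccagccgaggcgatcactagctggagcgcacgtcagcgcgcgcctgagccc
Chst11: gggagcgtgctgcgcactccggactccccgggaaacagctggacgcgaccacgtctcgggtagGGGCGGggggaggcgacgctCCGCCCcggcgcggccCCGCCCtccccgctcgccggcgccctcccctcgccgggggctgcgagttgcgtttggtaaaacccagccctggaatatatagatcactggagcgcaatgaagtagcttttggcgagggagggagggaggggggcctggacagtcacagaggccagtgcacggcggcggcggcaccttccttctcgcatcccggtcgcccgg
The 3 promoters hold 2, 1 and 3 GC boxes, in that order, and their GC content is 66.3%, 66.3% and 71.0%. Among the 35 members with a promoter in the RefSeq table, 25 held GGGCGG on either strand, against 35.9% of all 27025 promoters of this length, and the median GC content was 66.3% against 52.7%. TATAAA was found on either strand in 2 of the 35 (Hs6st2 and Sulf2), against 14.2% of all promoters. ACAATG and ACAAAG, letters bound by Sox proteins such as the cartilage factor SOX9, were found on either strand in 1 member each (Xylt2 and Chst3), against 12.8% and 18.7% of all promoters. These matches describe the letters in a short window only. No comparison with promoters of expressed genes, or with promoters of like GC content, was made.

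The question of the series is what changes in rib cage RNA when Foxc1 and Foxc2 are deleted in chondrocyte progenitors. The comparison of mutants with controls called none of the 44 members at an adjusted p under 0.1 (edgeR quasi-likelihood test, Benjamini-Hochberg over all genes tested), where 0.0902% of all genes tested were called and 0.0639% also passed a log2 fold change of 1 either way. The lowest adjusted p was 0.274, for Ndst3. At an unadjusted p under 0.05 there were 9 members, 8 of them lower and 1 higher in mutants, which compares with 10.6% of all genes in either direction, 4.7% lower and 5.9% higher. The DESeq2 Wald test called 2 members on the same counts, Chst13 lower (adjusted p = 0.045) and Ndst3 higher (adjusted p = 0.029), with 3.57% of all genes called, and none on the RSEM expected counts, with 3.15% of all genes called. Fold changes leaned downward. Of the 44 members, 37 had a lower mean level in mutants by the fitted fold change and 7 a higher one, against 48.8% of all genes with a lower one, and the median log2 fold change was −0.24 against 0.0081 over all genes.

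Linker, chondroitin and supply genes had the lower values. All 6 linker genes, all 6 chondroitin chain genes and all 10 genes of chondroitin and dermatan sulfation had a fold change below 0, with median log2 fold changes of −0.21, −0.41 and −0.27, and so did all 5 genes of sulfate and sugar supply, with a median of −0.40. The genes of heparan sulfation stood differently, with 4 of 10 below 0 and a median of 0.063, and the heparan chain genes had 4 of 5 below 0 and a median of −0.19. No difference between these roles was tested. Summed per length over all 44 members, as RPKM, here the CPM divided by the exon length in kilobases, the pathway came to 429, 575 and 417 RPKM in E420, E434 and E435 and to 354, 485 and 350 RPKM in E423, E433 and E440. The highest of these sums belonged to E434 and the next to the mutant E433, so the groups overlapped. The sum over the 10 heparan sulfation genes stayed between 59.5 and 65.6 RPKM in the 6 libraries, while that of the 6 chondroitin chain genes ran from 55.4 RPKM in E423 to 108 RPKM in E434.

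**Figure D1:**
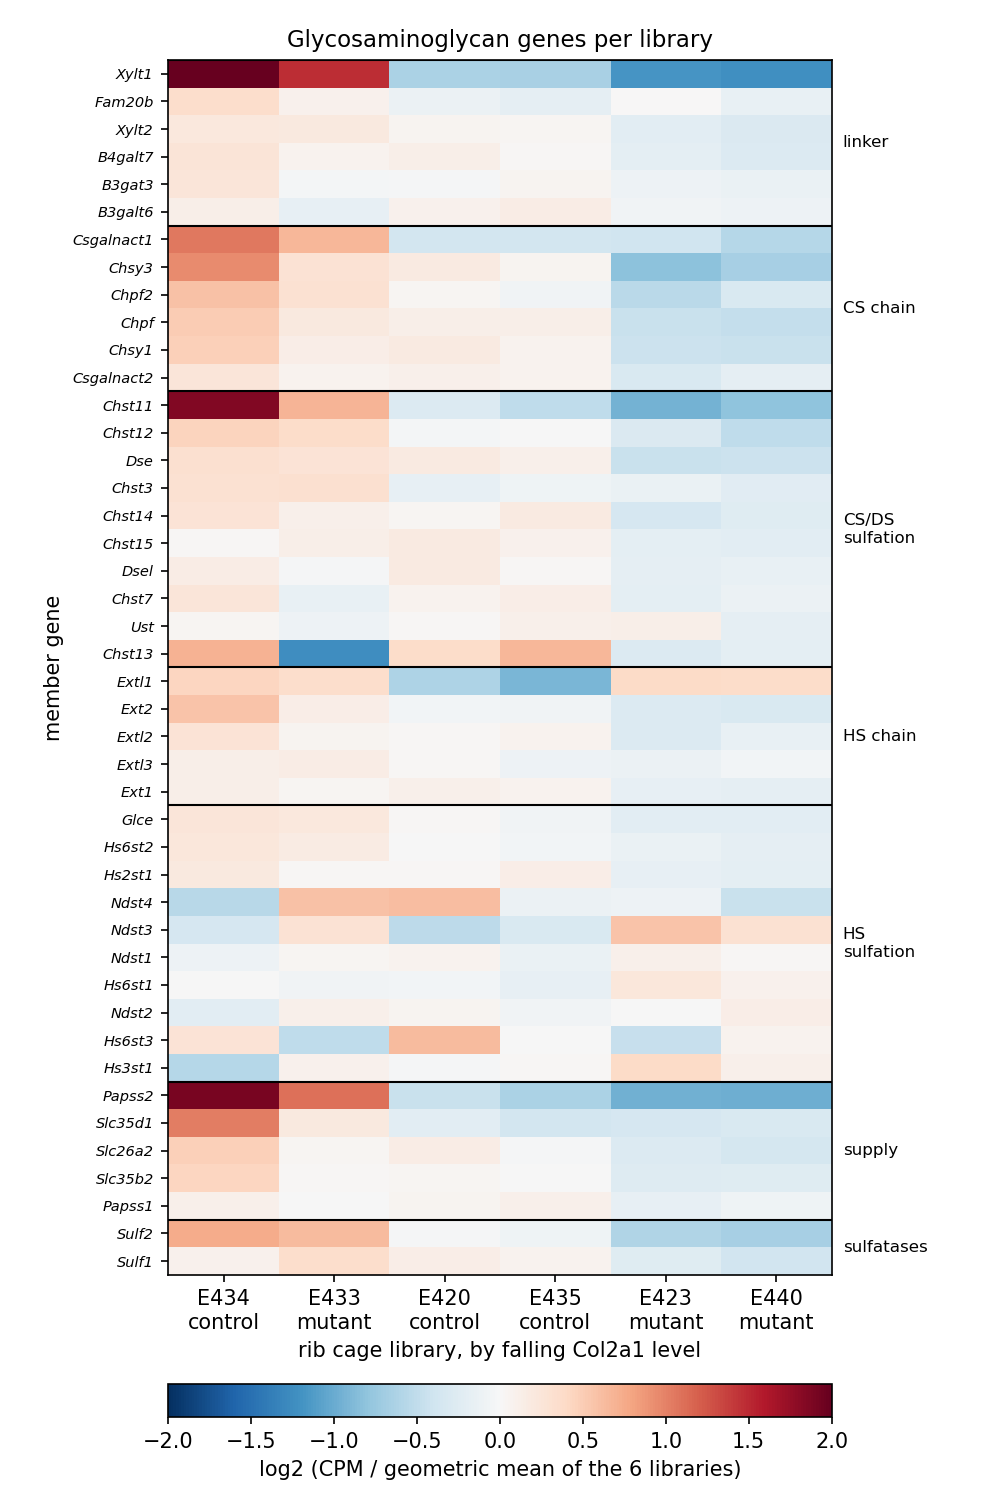
Level of each of the 44 members in each library (columns, by falling Col2a1), as the log2 ratio of its CPM to the geometric mean of the 6 libraries. Rows are grouped by role (CS, chondroitin sulfate; DS, dermatan sulfate; HS, heparan sulfate; supply, sulfate and sugar supply). Xylt1, Chst11 and Papss2 are high in E434 and E433 and low in the other 4 libraries, and Ndst1, Ndst2 and Hs6st1 show little contrast.

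Groups did not overlap for 11 members, 9 lower and 2 higher in mutants, against 8.21% and 6.81% of all genes tested. By levels from the RSEM expected counts, 6 members did not overlap, against 14.1% of all genes. The osteoblast, hypertrophic, osteoclast and macrophage marker sums were lower in each mutant as well, and their part was not tested. With 3 libraries against 3, an exact permutation test of a single gene cannot go below p = 0.1. Chst13, which sulfates carbon 4 of the chondroitin N-acetylgalactosamine, was the member with the lowest fold change (ENSMUSG00000056643.5, chromosome 6, 90308349 to 90325185, minus strand, GRCm38). It stood at 2.19, 2.74 and 2.68 CPM in E420, E434 and E435 and at 1.40, 0.719 and 1.47 CPM in E423, E433 and E440. The mutant level was lower by a log2 fold change of −1.08 (SE 0.30, edgeR adjusted p = 0.373), and its lowest level was in E433, the mutant with much Col2a1. Ndst3, an enzyme that starts the sulfation of heparan chains, went the other way at a low level, with 1.53, 1.74 and 1.77 CPM in controls and 3.25, 2.69 and 2.71 CPM in mutants. Every mutant library was above every control, and the log2 fold change was 0.78 (SE 0.16). Hs3st1, the heparan 3-O-sulfotransferase known from anticoagulant heparan sulfate, was also higher in each mutant library, at 4.45, 3.07 and 4.64 CPM in controls and 5.94, 4.83 and 4.88 CPM in mutants (log2 fold change 0.36, SE 0.20).

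The other 8 members without overlap were lower in mutants by small amounts. Dsel, an epimerase that turns glucuronic acid into iduronic acid in dermatan sulfate, stood at 59.3, 58.2 and 53.6 CPM in controls and 46.4, 51.8 and 47.6 CPM in mutants (log2 fold change −0.23, SE 0.080). Hs2st1, the heparan 2-O-sulfotransferase, stood at 61.9, 70.4 and 67.2 CPM in controls and 54.3, 61.9 and 53.2 CPM in mutants, with a log2 fold change of −0.24 (SE 0.091). Both genes are expressed in many tissues. Chst7, a chondroitin 6-O-sulfotransferase, stood at 6.18, 6.95 and 6.49 CPM in controls and 5.17, 5.31 and 5.46 CPM in mutants (−0.30, SE 0.12). B3galt6, which adds the last galactose of the linker, stood at 14.2, 14.6 and 14.8 CPM in controls and 12.7, 11.9 and 12.5 CPM in mutants (−0.23, SE 0.093). Ext1, a subunit of the heparan polymerase, stood at 97.8, 98.1 and 95.4 CPM in controls and 81.3, 92.8 and 80.4 CPM in mutants (−0.19, SE 0.080). None of these passed the adjusted test. Csgalnact2, which starts or lengthens chondroitin chains, stood at 44.2, 48.7 and 43.2 CPM in controls and 33.4, 43.1 and 36.2 CPM in mutants (−0.27, SE 0.12). Papss1, a PAPS synthase, stood at 112, 116 and 116 CPM in controls and 97.1, 108 and 102 CPM in mutants (−0.16, SE 0.071), and B3gat3, which closes the linker with glucuronic acid, at 35.7, 43.1 and 38.0 CPM in controls and 34.0, 35.7 and 33.1 CPM in mutants (−0.18, SE 0.094). Among these 8, E433 was the highest mutant for 6, and for Hs2st1, Csgalnact2 and B3gat3 the highest mutant and the lowest control were almost level.

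The group comparison depended on E433, the mutant with Col2a1 at 4927 CPM. Without it, edgeR called 15 members, 14 lower and 1 higher, with 13.4% of all genes called. Those lower were Xylt2, B4galt7, Csgalnact2, Chsy1, Chsy3, Chpf, Chst13, Chst14, Chst15, Dse, Dsel, Ext1, Hs2st1 and Sulf1, and the higher gene was Ndst3. In that fit the only mutants were E423 and E440, a close pair (SD of the log2 ratio 0.135) with low Col2a1. The spread within mutants was then small, and the group difference cannot be told apart from low Col2a1. Without E434, the control with the most Col2a1, none was called, with 0.077% of all genes called, 30 members rather than 37 had a fold change below 0, and the log2 fold change turned from −0.70 to 0.92 for Xylt1, from −0.69 to 0.60 for Papss2, from −0.94 to 0.23 for Chst11, from −0.26 to 0.38 for Csgalnact1 and from −0.42 to 0.16 for Slc35d1. Without both, when E420 and E435 were set against E423 and E440, edgeR called 31 members, 28 lower and 3 higher, with 37.6% of all genes called. Those 4 libraries are 2 close pairs, their residual spread is small, and keratinocyte markers differed between the pairs as well, by 5477 and 6316 CPM against 27959 and 28095 CPM.

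The members were then read against Col2a1. A fit with group and the log2 CPM of Col2a1 gave each gene a slope, the log2 change that went with each doubling of Col2a1 within groups. Slopes passed the limit for 23 of 44 members, all upward (edgeR adjusted p under 0.1), against 16.0% of all genes in either direction, 7.41% upward and 8.61% downward. Among genes with higher counts, by edgeR's own filter, 22.2% were called in either direction. All 6 chondroitin chain genes were called, with 4 of 6 linker genes, 5 of 10 genes of chondroitin and dermatan sulfation and 4 of 5 of the supply genes. On the heparan side, 1 of 5 chain genes (Ext2) and 2 of 10 sulfation genes (Glce and Hs6st2) were called, and 1 of the 2 sulfatases (Sulf2). The median slope was 0.061 over the members, 0.13 for the chondroitin chain and −0.0089 for heparan sulfation. E434 and E433 were the highest 2 libraries for 18 of 44 members, against 13.9% of all genes. Since the libraries fall into high and low Col2a1, no correlation is given, and the slope rests mainly on E434 and E433. The spread around each slope comes in large part from the close pairs, E420 with E435 and E423 with E440. That spread may be technical, so the SEs and p-values of the slopes may be too small for separate embryos. Without E433, 19 of the 23 calls were kept among 23, with 25.3% of all genes called, and without E434 all 23 among 31, with 37.2% of all genes called. Without E440 there were 13 calls, with 6.58% of all genes called. Keratinocyte marker sums were lowest in E434 and E433, and their part in the slopes was not tested.

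**Figure D2:**
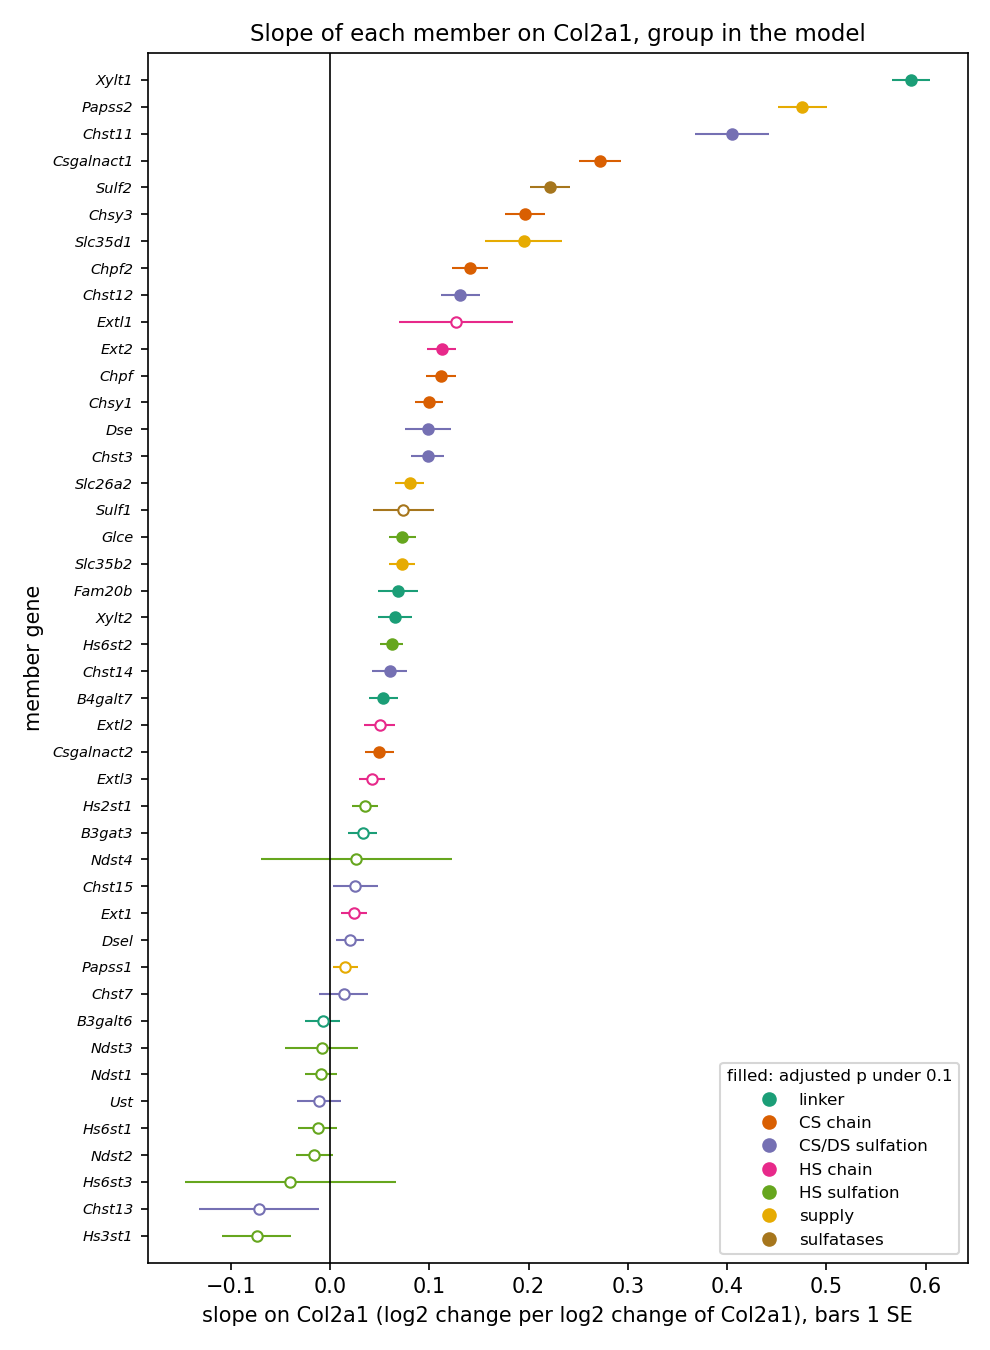
Slope of each member on Col2a1 (x axis, log2 change per log2 change of Col2a1, bars 1 SE) from the fit with group, sorted by slope and coloured by role. Filled points passed an adjusted p under 0.1. Xylt1, Papss2 and Chst11 lie at 0.59, 0.48 and 0.40, followed by a gap to Csgalnact1 at 0.27.

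Xylt1, a xylosyltransferase that starts chondroitin and heparan chains (ENSMUSG00000030657.11, chromosome 7, 117380979 to 117673580, plus strand, GRCm38), had the highest slope of the members, 0.59 (SE 0.019, adjusted p = 6.6e-05). It stood at 14.0, 102 and 14.0 CPM in E420, E434 and E435 and at 9.67, 60.5 and 9.34 CPM in E423, E433 and E440. E434 was 7.25-fold above E435 and E433 was 6.26-fold above E423, so the high libraries of both groups stood far above the others. Xylt2, which catalyses the same step, stood at 39.7, 43.9 and 39.2 CPM and at 32.7, 43.5 and 31.1 CPM in the same order (slope 0.065, SE 0.017). The level of Xylt1 over that of Xylt2, both per length, was 0.146, 0.954 and 0.147 in controls and 0.122, 0.574 and 0.124 in mutants, so Xylt1 came close to Xylt2 in E434 alone.

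Papss2 showed the same contrast with its relative. PAPSS2 and PAPSS1 both turn sulfate into PAPS. Papss2 (ENSMUSG00000024899.7, chromosome 19, 32595790 to 32667187, plus strand) stood at 29.9, 151 and 26.3 CPM in controls and at 20.9, 86.6 and 20.7 CPM in mutants, with a slope of 0.48 (SE 0.024, adjusted p = 0.00028). Papss1 was among the flattest members (slope 0.015, SE 0.012) and had the highest level per length of all 44, at a mean of 35.5 RPKM over the 6 libraries. The level of Papss2 over that of Papss1 per length was 0.219, 1.07 and 0.186 in controls and 0.176, 0.657 and 0.167 in mutants. Papss2 passed Papss1 in E434 alone. Differences in slope between related genes were not tested, and these pairs were chosen with the values known.

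Chst11, which places sulfate on carbon 4 in cartilage chondroitin (ENSMUSG00000034612.7, chromosome 10, 82985498 to 83195900, plus strand), stood at 32.6, 142 and 27.5 CPM in controls and at 20.3, 62.9 and 22.4 CPM in mutants, with a slope of 0.40 (SE 0.037, adjusted p = 0.0021). Its level was 5.18-fold higher in E434 than in E435 and 3.09-fold higher in E433 than in E423. Chst12, another 4-O-sulfotransferase, was less tied to Col2a1, at 26.0, 36.3 and 26.5 CPM and 21.8, 34.2 and 18.7 CPM (slope 0.13, SE 0.020, adjusted p = 0.011). Chst13, of the same kind, had a slope of −0.072 (SE 0.061) that did not pass. Per length, Chst11 over Chst12 was 1.67 in E434 and at most 0.785 in each other library. The 6-O-sulfotransferase Chst3 had a slope of 0.098 (SE 0.017, adjusted p = 0.018).

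**Figure D3:**
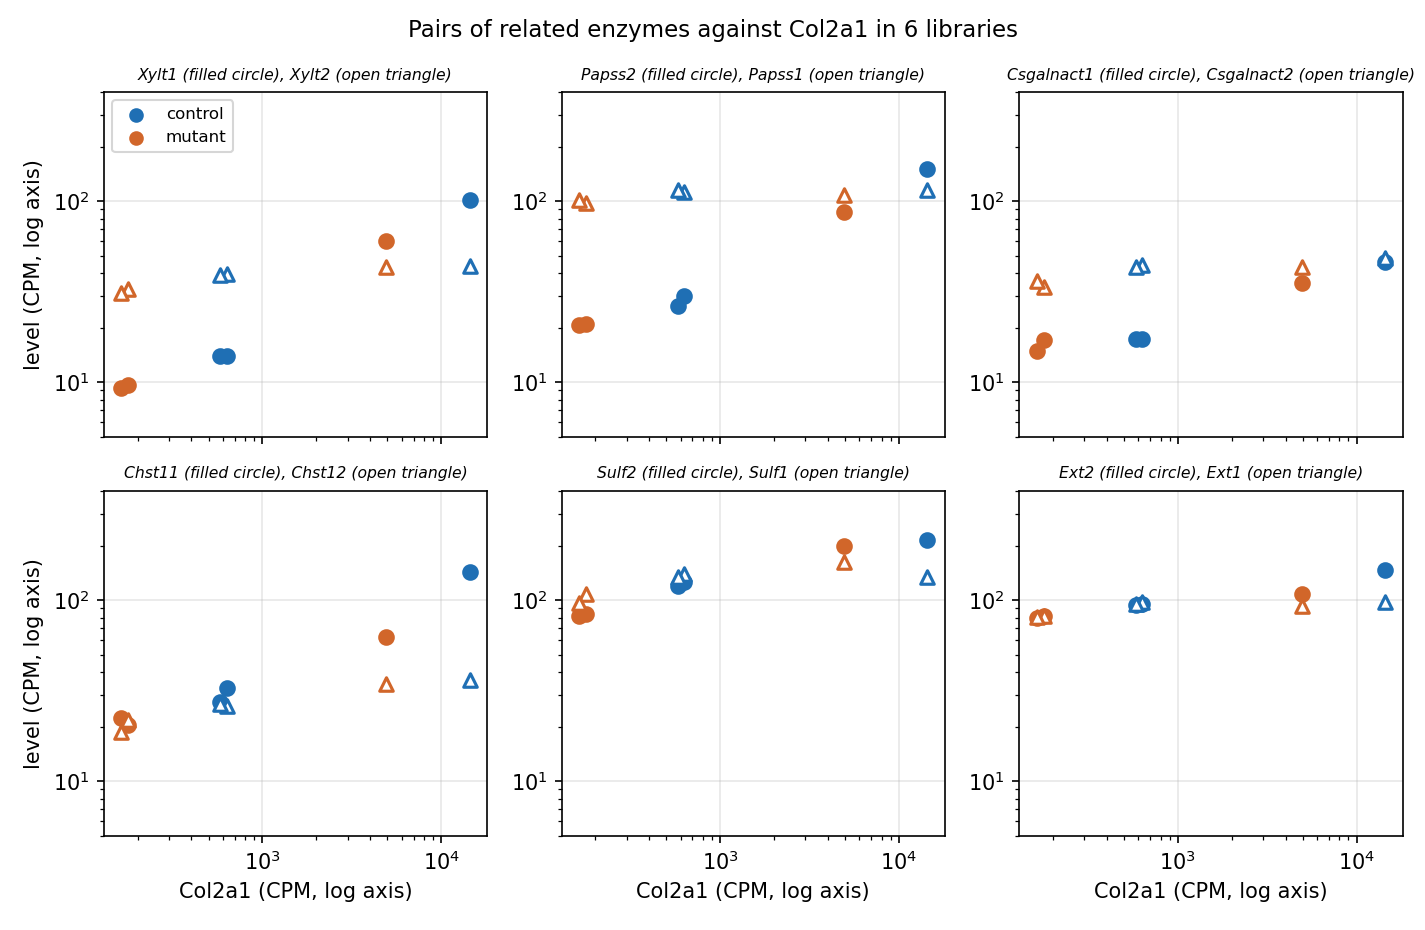
CPM of 6 pairs of related genes (y axes, log scale) against the CPM of Col2a1 (x axes, log scale) in the 3 control and 3 mutant libraries, 1 point a library. Filled circles of Xylt1, Papss2 and Chst11 rise with Col2a1 in both groups, and the open triangles lie between 31.1 and 43.9 CPM for Xylt2 and between 97.1 and 116 CPM for Papss1.

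The chondroitin chain genes rose with Col2a1 in steps. Csgalnact1, which adds the N-acetylgalactosamine that commits a linker to chondroitin, stood at 17.2, 46.1 and 17.2 CPM in controls and 17.0, 35.3 and 15.0 CPM in mutants, with a slope of 0.27 (SE 0.021, adjusted p = 0.0011). Chsy3, a chondroitin polymerase, stood at 13.5, 22.9 and 12.4 CPM and at 6.76, 14.6 and 7.56 CPM (slope 0.20, SE 0.020, adjusted p = 0.0031). Its mutants E423 and E440 were the lowest libraries. Chpf2, a polymerizing factor, had a slope of 0.14 (SE 0.018) over 40.2, 59.0 and 37.1 CPM and 26.9, 48.3 and 31.6 CPM, and 44.1% of its exon bases lie in another gene's exons, so its counts are less certain. Chpf, the polymerizing factor with the highest level per length of the chain genes (29.3 RPKM), stood at 119, 155 and 119 CPM and at 80.1, 125 and 78.3 CPM (slope 0.11, SE 0.015). Chsy1, the other polymerase of high level, stood at 123, 152 and 115 CPM and at 80.9, 120 and 79.6 CPM (slope 0.10, SE 0.014). Within the low-Col2a1 libraries, the mutant levels of Chpf and Chsy1 were lower than the control levels. Col2a1 was lower in those mutants as well, at a log2 CPM of 7.47 in E423 and 7.34 in E440 against 9.30 in E420 and 9.19 in E435.

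Of the supply genes, Slc35d1, which brings nucleotide sugars into the endoplasmic reticulum, stood at 14.8, 34.6 and 13.2 CPM in controls and 13.4, 19.5 and 13.8 CPM in mutants (slope 0.20, SE 0.039, adjusted p = 0.029). Slc26a2, the sulfate transporter of the cell surface, had a slope of 0.080 (SE 0.015), and Slc35b2, the carrier of PAPS into the Golgi, a slope of 0.072 (SE 0.013), both past the limit with an adjusted p of 0.022. Slc35d1 was highest in E434, with E433 next. The sulfatases, which remove 6-O-sulfate from heparan sulfate outside the cell, differed: Sulf2 stood at 126, 214 and 120 CPM and at 84.3, 199 and 81.2 CPM (slope 0.22, SE 0.020, adjusted p = 0.00195), and Sulf1 at 139, 134 and 134 CPM and at 107, 162 and 96.9 CPM (slope 0.074, SE 0.031, adjusted p = 0.20). Sulf1 was thus highest in E433 and level among the controls.

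The slopes of most heparan genes did not pass the limit, but some lay close to it. Extl2 and Extl3 had an adjusted p of 0.104 and 0.107 in edgeR, against 0.0918 for Csgalnact2, which passed. On RSEM expected counts Csgalnact2 and Chst14 did not pass. Glce and Hs6st2, which passed, had slopes of 0.073 and 0.062, near the 0.072 of Slc35b2. Differences in slope between roles were not tested. Ndst1, the N-deacetylase and N-sulfotransferase with the highest level of its role (19.8 RPKM), stood at 172, 153 and 149 CPM in controls and 175, 168 and 167 CPM in mutants (slope −0.0092, SE 0.016). Extl3, which takes part in starting heparan chains and had the highest level of the heparan chain genes (16.6 RPKM), stood at 102, 108 and 92.9 CPM and 92.5, 111 and 95.9 CPM (slope 0.042, SE 0.013). Ext2 was the only heparan chain gene whose slope passed the limit. It is the partner of Ext1 in the polymerase and stood at 95.3, 146 and 93.6 CPM and 81.4, 109 and 79.4 CPM (slope 0.11, SE 0.014, adjusted p = 0.0066). Extl1 had a slope of 0.13 with a larger error (SE 0.058, adjusted p = 0.234), and Ext1 had a slope of 0.024 (SE 0.013). Hs6st3 and Ndst4, with 45 and 177 counts over the 6 libraries, had slopes of −0.040 (SE 0.11) and 0.026 (SE 0.096). B3gat3 and Dse had the highest level per length of their roles, at 14.1 and 16.1 RPKM. Dse, the epimerase of dermatan sulfate, stood at 88.5, 98.4 and 83.9 CPM in controls and 57.7, 95.0 and 58.5 CPM in mutants (slope 0.099, SE 0.023).

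The same order is visible within the groups without a model, but in the libraries that set the slopes, so it is no separate support. E434 was above E435 for 36 of 44 members and E433 was above E423 for 35, and 31 members were higher in both, 70.5% of the members against 28.8% of all genes tested. Xylt1, Papss2 and Chst11 had the highest ratios in both groups, and Col2a1 itself was 24.8-fold and 27.8-fold higher.

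At equal Col2a1, meaning the group term of the fit that also holds Col2a1, none of the 44 members passed an adjusted p under 0.1 in edgeR, against 1.94% of all genes, and the lowest adjusted p was 0.121, for Chsy1. At an unadjusted p under 0.05 there were 17 members, 13 lower and 4 higher, against 13.9% of all genes in either direction, 7.05% lower and 6.89% higher. The lower ones took in 4 of 6 chondroitin chain genes, and Csgalnact1, of the same role, was among the higher ones at 0.27 (SE 0.11). Chsy1, Chsy3 and Chpf had log2 fold changes of −0.32 (SE 0.068), −0.44 (SE 0.10) and −0.30 (SE 0.071). The other higher ones were Xylt1 at 0.39 (SE 0.10), Extl1, a heparan chain gene, at 0.95 (SE 0.30), and Ndst3 at 0.76 (SE 0.18). DESeq2 called 8 members in this fit, with 5.85% of all genes called: Chpf, Chst13, Chsy1, Chsy3 and Slc26a2 lower, and Extl1, Ndst3 and Xylt1 higher. Leaving out E434 or E433 gave 25 edgeR calls in either case, with 27.6% and 28.2% of all genes called. Either fit leaves a close pair as a whole group, with little spread, and a slope that rests mainly on the remaining library with high Col2a1. With all libraries kept, the spread in this fit also comes in large part from the close pairs and may be technical. Col2a1 may itself be changed by the deletion, so the comparison at equal Col2a1 is a second description and not a correction.

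**Figure D4:**
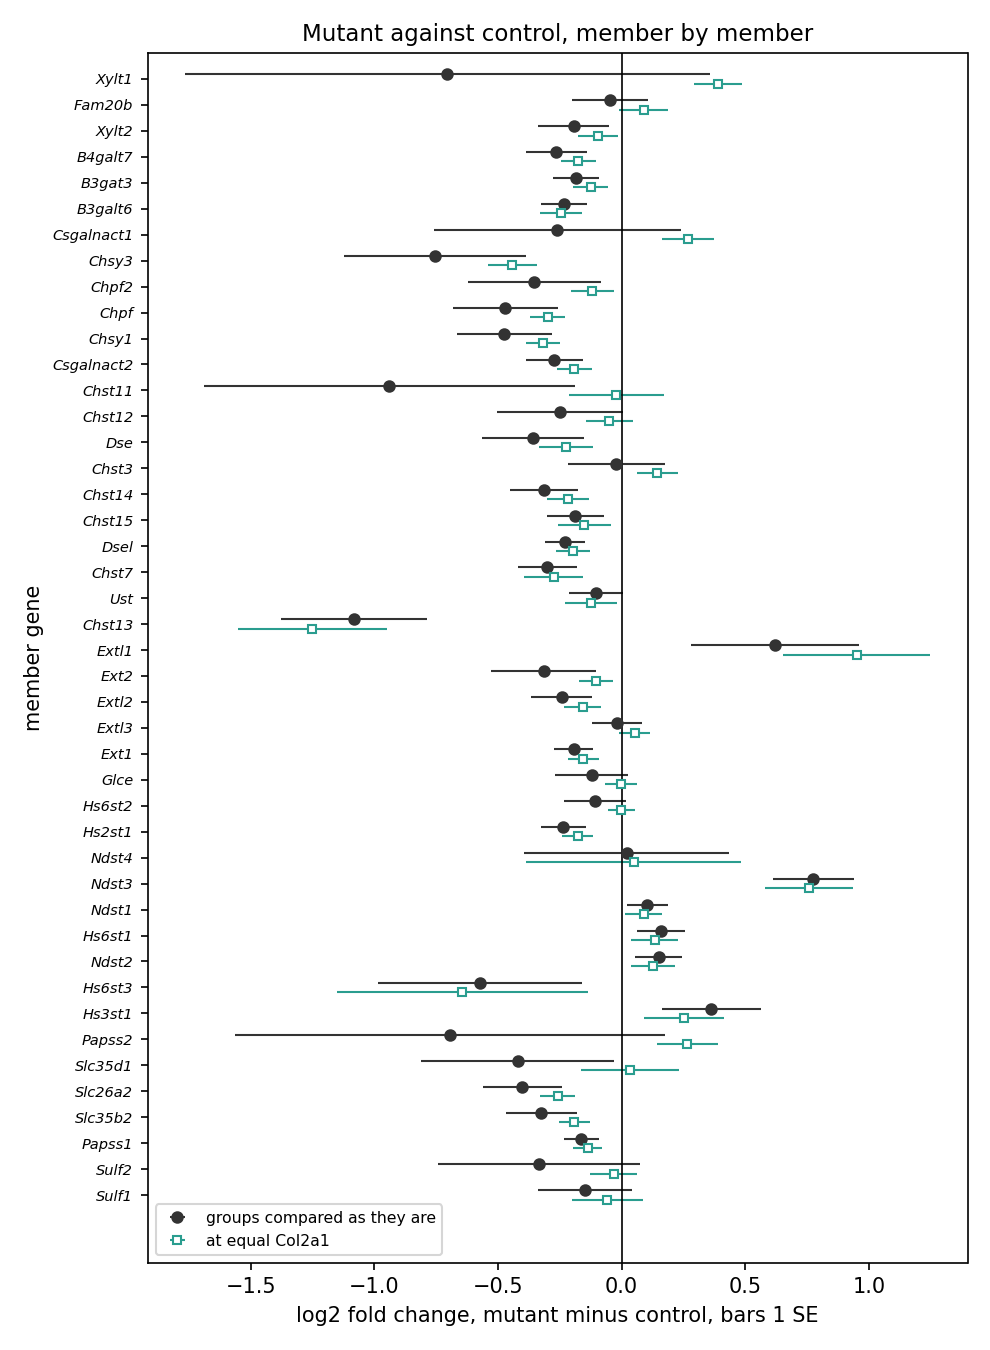
Log2 fold change of mutants against controls for each member (x axis, bars 1 SE), from the comparison of the groups as they are (filled circles) and at equal Col2a1 (open squares). Error bars of Xylt1, Papss2 and Chst11 shrink in the second fit, and Chst13 and Ndst3 lie at −1.08 and 0.78 in the first.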

How the data were processed

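RNA was taken from 6 rib cages and libraries were made with a stranded mRNA kit at a sequencing facility and read from both ends. The deposited count table holds raw counts per gene from featureCounts 1.6.0 on exons of a GENCODE annotation after HISAT2 2.1.0 alignment to GRCm38, with primary alignments, each end of a pair on its own and strand not used, so overlapping genes on either strand share reads. The deposited expected counts per gene come from STAR 2.7.6 and RSEM 1.2.31 and were rounded here for the alternative fits. The authors' tables of DESeq2 1.26.0 comparisons and their 12 per-sample columns were not used. No row lacks a gene.

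Counts were scaled by TMM, genes with at least 10 counts over the 6 libraries kept, and tested in R 4.3.3 with the edgeR 4.0.16 quasi-likelihood test, with Benjamini-Hochberg adjustment over 26596 genes and a limit of 0.1. A fit with group and centred log2 CPM of Col2a1 (prior count 2) gave slopes and the comparison at equal Col2a1. The alternatives were DESeq2 1.42.0, other size factors, filters, RSEM counts, another cartilage measure, summed close libraries and libraries left out. SE is the log2 change over the square root of F. Scripts were tested on simulated data. Every member may be named. Values per library are given for up to 10 members with the smallest p whose groups did not overlap, up to 10 with the highest slope past the limit, the highest level of each role and a few relatives of these, chosen with their values known. The members and lists were chosen with earlier results of these data known.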

Additional observations from a re-analysis of the deposited data

How the results depend on the processing

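No paired analysis was possible because the embryo numbers of the 2 groups do not match and, although the methods state that littermates were compared, neither they nor the labels say which embryos shared a litter. For mutants against controls, the DESeq2 Wald test called 2 members, leaving out one library gave 0 to 15 calls (15 without E433), and leaving out E434 and E433 together, chosen after seeing the data, gave 31. For the slope on Col2a1, leaving out one library gave 13 to 31 calls (13 without E440, 31 without E434). At equal Col2a1, DESeq2 called 8 members, DESeq2 on RSEM expected counts (also added after seeing the data) 6 and the fit with no low-count filter 1 (Chsy1), with 5.85%, 5.24% and 2.06% of all genes called, and leaving out one library gave 0 to 25. For the 68 other genes of glycosaminoglycan metabolism, where no gene was called, DESeq2 called 6, the fit with no low-count filter 1 (Sdc2) and DESeq2 on RSEM expected counts 6, with 3.57%, 0.134% and 3.15% of all genes called. There, leaving out one library gave 0 to 12 calls, 12 without E433 with 13.4% of all genes called, and leaving out E434 and E433 gave 42, with 37.6%. Members whose groups did not overlap numbered 11, and 6 by RSEM levels, where 14.1% of all genes did not overlap. The cause was not tested.

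No setting that kept all libraries reversed a member's direction. Leaving out one library reversed the log2 fold change of 9 members, with ranges of −2.18 to 0.92 for Xylt1, −0.15 to 0.14 for Fam20b, −0.75 to 0.38 for Csgalnact1, −0.20 to 0.14 for Chst3, −1.66 to 0.23 for Chst11, −0.095 to 0.037 for Extl3, −0.31 to 0.39 for Ndst4, −1.73 to 0.60 for Papss2 and −0.67 to 0.16 for Slc35d1. Leaving out E434 and E433 gave 0.088 for Fam20b and −0.54 for Ndst4. The slope ranges of the 11 genes that reversed were −0.016 to 0.0028 for B3galt6, −0.0010 to 0.029 for Chst7, −0.21 to 0.035 for Chst13, −0.022 to 0.067 for Chst15, −0.024 to 0.0035 for Ust, −0.0050 to 0.26 for Extl1, −0.042 to 0.0074 for Ndst2, −0.029 to 0.017 for Ndst3, −0.17 to 0.18 for Ndst4, −0.044 to 0.024 for Hs6st1 and −0.0025 to 0.14 for Sulf1. None of these slopes had passed the limit.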

Other observations

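Of the 68 other genes of glycosaminoglycan metabolism tested, 52 had a lower fold change in mutants, with a median log2 fold change of −0.22, and none passed the edgeR test. DESeq2 called 6, with 3.57% of all genes called: Arsb and Glb1, lysosomal enzymes that break chains down, and the core protein genes Bcan, Sdc2 and Sdc3 lower, and Hpse, a heparanase, higher. Sdc2, a cell surface heparan sulfate proteoglycan, stood at 93.7, 107 and 87.5 CPM in E420, E434 and E435 and at 58.3, 61.0 and 55.0 CPM in E423, E433 and E440. Each mutant library was below each control, E433 included, and the log2 fold change was −0.72 (SE 0.10, DESeq2 adjusted p = 2.01e-06, edgeR adjusted p = 0.145). Bcan, a proteoglycan known from brain, stood at a low 4.33, 5.29 and 5.19 CPM in controls and 1.71, 1.69 and 2.38 CPM in mutants. Slopes on Col2a1 passed the edgeR limit upward for 30 of the 68 and downward for 4, where 7.41% and 8.61% of all genes did. At equal Col2a1, edgeR called 10: Has3, Idua and Agrn higher, and Arsb, Glb1, Bcan, Bgn, Sdc1, Sdc2 and Sdc3 lower, with 1.94% of all genes called. Has3, a hyaluronan synthase, stood at 8.60, 2.07 and 7.61 CPM in controls and 31.1, 6.50 and 29.3 CPM in mutants, an order of libraries like that of the keratinocyte markers, whose part was not tested.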
